A study of Homo sapiens with 8 samples.

Results

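This account follows 139 genes whose mRNA was at least 2-fold lower with TNF than with the control protein after 12 h and little different after 2 h, out of 18239 genes measured. The cells were NS-SV-AC, an immortalised line labelled as human salivary gland acinar cells, the cells that secrete saliva. They received TNF (tumour necrosis factor, labelled TNF-a) at 20 ng/ml, or bovine serum albumin (BSA), for 2, 6, 12 or 24 h. RNA of each of the 8 combinations was put on 1 Affymetrix GeneAtlas array, so no treatment and time has a replicate and no single difference can be set against a spread between replicates. The genes were selected on measured values: a gene was taken when TNF minus BSA was at or below -1 at 12 h (log2 units, where -1 is a 2-fold lower level) and lay within 0.585, a 1.5-fold difference, at 2 h. Each gene is represented by its brightest probe set, a group of probes for 1 transcript. 153 genes were at or below -1 at 12 h. Of these, 8 lay outside the 2 h window, all 8 on the lower side, and 6 were left out by symbol, which gives the 139. The values at 2 and 12 h chose the genes, so they are description here and carry no test. The differences at 6 and 24 h were not part of that choice, though all 8 arrays entered the mean that picks the probe set.

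TNF binds its receptor and within minutes releases NF-kB, a transcription factor that enters the nucleus and switches on inhibitors of itself, chemokines and adhesion molecules. Many other genes are lowered later, often as coactivators and RNA polymerase are drawn elsewhere, as repressors accumulate, or as messages already made decay at their own pace. In salivary epithelium TNF is studied for its part in the inflammation of Sjögren's disease, in which acini lose secretory function.

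The 7 arrays other than TNF at 24 h correlated with each other across genes with r from 0.962 to 0.994, and the TNF array at 24 h with the others from 0.907 to 0.946. Probe sets at the 3′ and 5′ ends of GAPDH differed by 6.28 on this TNF array and by 0.20 to 0.37 on the rest. Those of ACTB differed by 6.88 and by 2.59 to 3.47. A wide gap is a usual sign of degraded RNA, so 24 h values below come from a TNF array of that kind, and its part in them was not tested. Few defining markers of acini were high in the line. Of 17 acinar markers measured, 9 had a mean level with BSA under the lower quartile of all genes (3.70) and 1, the transporter SLC12A2, was above the median (5.13). The water channel AQP5 read 4.01 and the mucin MUC7 2.84. The epithelial keratins KRT8 and KRT18 read 8.15 and 10.10, and the mesenchymal genes VIM and COL3A1 11.97 and 9.44. They are among the members of the duct and fibroblast lists above the median, and other members were low. Of 12 duct markers measured, 6 were under the lower quartile and 4 above the median. Of 9 fibroblast markers, 2 were under the lower quartile and 5 above the median. None of the 139 genes is among the markers listed for acinar, duct, myoepithelial, fibroblast, endothelial or white blood cells.

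At 6 h, on arrays that did not choose them, most of the 139 genes were already lower with TNF. The median difference was -0.61, or 1.53-fold lower, against -0.01 over all genes. In RNA of a whole culture, fewer cells of a kind and less RNA per cell cannot be told apart. TNF was below BSA for 131 of the 139 (94.2%), where 53% of all genes were below 0. At least 1.5-fold lower were 72 (51.8%), against 2.51% of all genes, and at or below -1 there were 23 (16.5%), against 0.384%. The range ran from -2.13 for GDF6 to 0.41 for PI15, and 8 genes were above 0. None was at or above 1 at 6 h, as 1.38% of all genes were. At 12 h, where 0.839% of all genes were at or below -1 and 3.97% at least 1.5-fold lower, the median was -1.18 (2.27-fold lower) and the range -2.24 to -1.001, as the choice fixes. At 2 h the median was -0.15, against -0.02 over all genes, with 114 of the 139 (82.0%) below 0 inside the window. The upper quartile of the 139 was -0.04, against 0.06 over all genes, so most leaned lower already at 2 h. The share of all genes below 0 was not counted at 2 h. For 133 of the 139 the difference was lower at 12 h than at 6 h, and the median gene had 47.5% of its 12 h difference at 6 h. The choice set a limit at 12 h and none at 6 h, so it favours this order, which is description only.

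**Figure D1:**
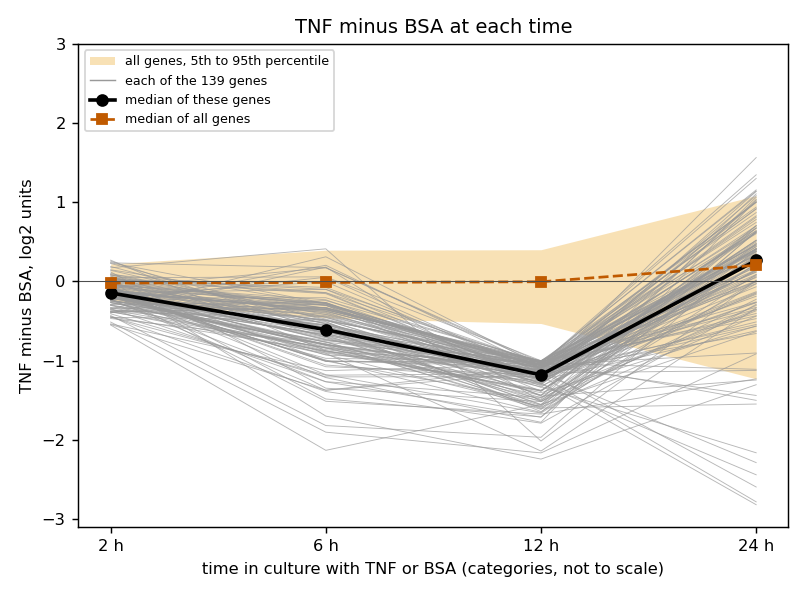
TNF minus BSA in log2 units (vertical axis) at 2, 6, 12 and 24 h (categories) for each of the 139 genes (grey lines), their median (black circles) and the median of all genes (orange squares), with the 5th to 95th percentile of all genes shaded. The median of the 139 genes passes from -0.15 to -0.61 and -1.18 and lies at 0.27 at 24 h, where the shaded band is widest and the median of all genes is 0.20.

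By level, the difference lay mainly in the TNF arm. The median level of the 139 genes was 6.50, 6.41, 6.70 and 6.45 with BSA at 2, 6, 12 and 24 h. With TNF it was 6.32, 5.61, 5.34 and 6.69, so the arrays at 6 and 12 h stood below the other 6. From 2 to 12 h the median change was -0.95 with TNF and 0.13 with BSA, and over all genes -0.01 and -0.03. With TNF all 139 were lower at 12 h than at 2 h, 65 of them by 2-fold or more, where 1.22% of all genes were. By 6 h 30 already were, where 1.1% of all genes were. With BSA 119 of the 139 stayed within 1.5-fold of 2 h. Below 0 with BSA were 55 of the 139, where 56% of all genes were. At least 2-fold lower with BSA was 1 of the 139, where 0.345% of all genes were. These figures share the arrays that chose the genes. TNF at 12 h was the lowest of the 8 arrays for 80 of the 139, as it was for 11.9% of all genes.

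**Figure D2:**
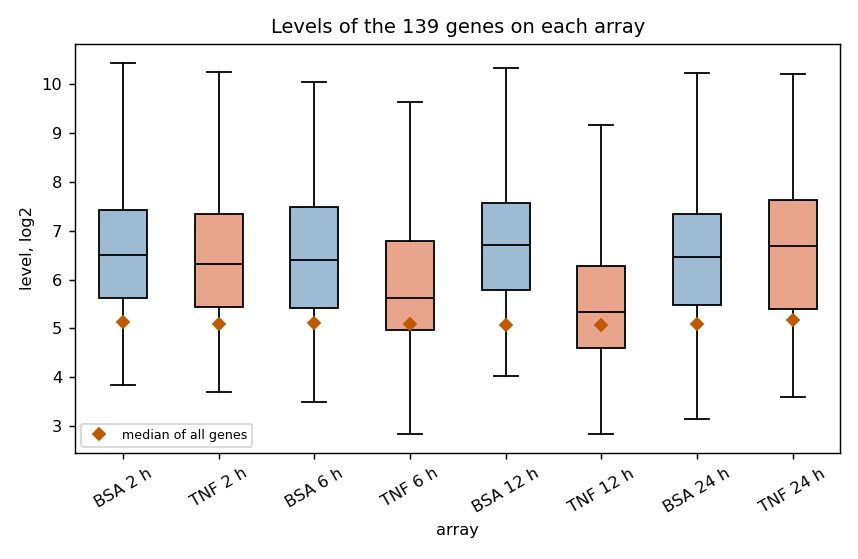
Levels (log2, vertical axis) of the 139 genes on each of the 8 arrays, as boxes from the lower to the upper quartile with the median as a line and whiskers to the lowest and highest gene, and the median of all genes as orange diamonds. The boxes of TNF at 6 h and 12 h, with medians of 5.61 and 5.34, lie lower than the other 6, whose medians run from 6.32 to 6.70.

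Most of the genes gave a signal in the middle or upper range of the array with BSA. Signals of different probe sets place a gene on the array and do not compare amounts of RNA between genes. With BSA at 12 h their levels ran from 4.02 to 10.35, none was under the lower quartile of all genes and 43 were above the upper quartile (7.30). With TNF at 12 h they ran from 2.83 to 9.16, and 14 were under the lower quartile of that array. The 6 probe sets with the highest signal over the BSA arrays were those of RHOBTB3 (mean level 10.24), the matrix genes HAPLN1 (9.67) and THBS1 (9.46), the homeobox factor PBX3 (9.24), GULP1 (8.68) and the cystine transporter SLC7A11 (8.63).

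Transcription factors and their partners had the lowest median of the roles at 6 h: 20 genes, with a median of -0.90 at 6 h, 8 of them at or below -1 and 18 below 0. The roles were assigned by function after the genes were known, and 127 of the 139 have one. Levels below are listed in the order 2, 6, 12 and 24 h. RFX7, a DNA-binding factor of the regulatory factor X family, read 4.15, 4.87, 5.51 and 5.42 with BSA and 4.16, 3.17, 3.27 and 4.11 with TNF. BSA was higher at 6, 12 and 24 h than at 2 h, while TNF at 6 and 12 h gave the lowest readings of the 8. TNF minus BSA was -1.70 at 6 h, -2.24 at 12 h and -1.30 at 24 h. PPARGC1A, the coactivator PGC-1alpha that drives mitochondrial gene programmes, read 8.04, 7.98, 8.16 and 7.70 with BSA and 7.53, 6.07, 5.99 and 6.79 with TNF. Every TNF array was below every BSA array, and TNF minus BSA was -0.51 at 2 h and -1.90 at 6 h. A further probe set with a mean level of at least 5 was at -0.87 at 2 h, outside the 2 h window, and at -2.72 at 6 h. Relatives and partners were nearer to 0: PPARGC1B differed by 0.07 at 6 h and -0.03 at 12 h, and the mitochondrial factor TFAM by -0.04 and -0.10. ETV1, an ETS-family factor, read 6.76, 7.10, 7.06 and 7.91 with BSA and 6.33, 5.28, 5.09 and 8.31 with TNF. TNF at 6 and 12 h were the lowest of the 8 arrays and TNF at 24 h the highest.

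**Figure D3:**
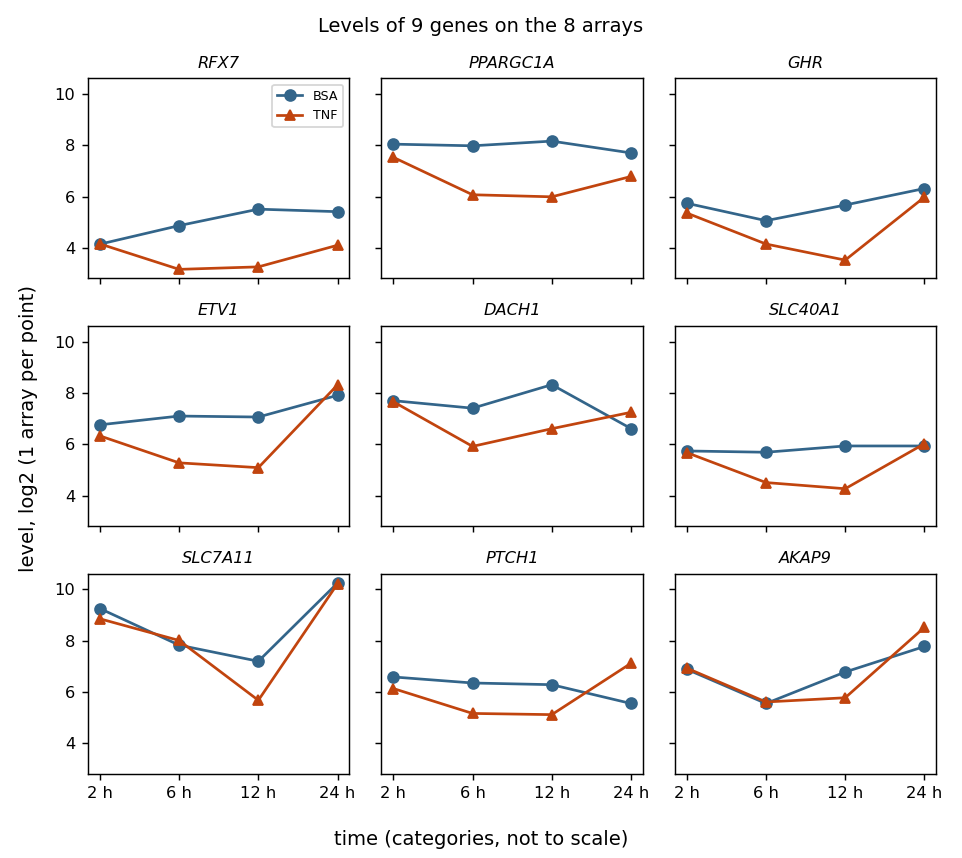
Levels (log2, vertical axis, 1 array per point) of 9 genes at 2, 6, 12 and 24 h (categories) with BSA (blue circles) and TNF (red triangles). For RFX7, PPARGC1A, ETV1, DACH1, SLC40A1 and PTCH1 the TNF line is at least 1.18 below BSA at 6 h, for SLC7A11 and AKAP9 the lines lie within 0.18 at 6 h and part at 12 h, and GHR lies between.

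Developmental regulators of eye, ear and gland formation were among them. DACH1, a corepressor, read 7.70, 7.41, 8.32 and 6.61 with BSA and 7.66, 5.92, 6.61 and 7.25 with TNF. It was lowest with TNF at 6 h, and TNF and BSA had changed order by 24 h. EYA1, the phosphatase and coactivator that works beside DACH proteins, read 6.41, 5.90, 6.55 and 5.32 with BSA and 6.10, 5.14, 4.98 and 5.10 with TNF. TNF at 6, 12 and 24 h were its lowest arrays. The family was not uniform: EYA3 differed by -0.01 at 12 h, EYA4 by -0.71, and SIX4 was higher with TNF by 1.27 at 2 h and 0.92 at 12 h. SATB1, which organises chromatin loops, read 5.22, 3.67, 4.27 and 5.22 with BSA and 4.89, 2.83, 2.83 and 6.32 with TNF, lowest with TNF at 6 and 12 h and highest with TNF at 24 h. EBF1, a factor known from B cell and stromal development, read 4.28, 4.37, 4.84 and 4.31 with BSA and 4.11, 3.38, 3.19 and 4.93 with TNF. PBX3, a homeobox partner protein, read 9.58, 9.22, 9.58 and 8.59 with BSA and 9.45, 8.29, 8.52 and 8.71 with TNF. Its lowest arrays were TNF at 6 and 12 h, and both 24 h arrays lay next to them.

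The rest of this role differed widely at 6 h. NFIA, of the nuclear factor I family, read 7.396, 7.53, 7.81 and 7.39 with BSA and 7.22, 7.03, 6.53 and 7.91 with TNF, with a difference of -0.49 at 6 h and -1.28 at 12 h. NFIB, its relative, was 0.68 at 6 h and 0.09 at 12 h, and NFIC -0.57 and -0.00. Both members SSBP2 (-0.56 at 6 h) and SSBP3 (-1.06 at 6 h) encode partners of the LIM-domain binding complex, while SSBP4 was 0.04 and the mitochondrial SSBP1 -0.01 at 12 h. LMO3, a LIM-only protein, was -0.88 and -1.29 at 6 and 12 h, and MEF2C, a MADS-box factor of muscle and nerve, -0.70 and -1.23. TOX was -1.003 and -1.04, SOBP -1.38 and -1.15, and THAP10 -1.21 and -1.20. The acetyltransferase KAT2B was -0.30 and -1.29, and ATXN1, a corepressor, 0.17 and -1.04. Of the nuclear receptors, the thyroid hormone receptor THRB was -0.37 and -1.12. NR3C2, the mineralocorticoid receptor, read 5.18, 5.41, 5.34 and 5.91 with BSA and 4.89, 5.61, 4.25 and 6.52 with TNF. It was higher with TNF at 6 h (0.20) and lowest of the 8 arrays with TNF at 12 h.

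Promoter windows of RefSeq, which run from 250 bases before to 50 after an annotated start in GRCh38.p14, were found for 115 of the 139 genes (225 windows) and for 14484 genes in all (20496 windows). They are shown for 4 transcriptional regulators that hold a short motif of a well known factor family. Windows with an E-box were taken only from the genes lowest at 12 h, so the low 12 h values of the genes shown follow from that choice. Other genes with a match are not shown, such as ELOVL4 and RHOBTB3 for the E-box and NFIA and MEF2C for kappaB. Both strands were searched, and capitals mark the match. The first 3 hold the E-box CACGTG and PBX3 a match to the kappaB consensus.
RFX7, chr15:56245033-56245332, minus strand: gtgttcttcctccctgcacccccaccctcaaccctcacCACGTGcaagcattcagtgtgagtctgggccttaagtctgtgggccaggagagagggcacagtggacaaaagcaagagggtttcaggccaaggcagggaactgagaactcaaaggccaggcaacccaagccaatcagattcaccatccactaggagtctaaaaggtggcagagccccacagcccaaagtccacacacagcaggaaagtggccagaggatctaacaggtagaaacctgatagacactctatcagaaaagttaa
PPARGC1A, chr4:24472856-24473155, minus strand: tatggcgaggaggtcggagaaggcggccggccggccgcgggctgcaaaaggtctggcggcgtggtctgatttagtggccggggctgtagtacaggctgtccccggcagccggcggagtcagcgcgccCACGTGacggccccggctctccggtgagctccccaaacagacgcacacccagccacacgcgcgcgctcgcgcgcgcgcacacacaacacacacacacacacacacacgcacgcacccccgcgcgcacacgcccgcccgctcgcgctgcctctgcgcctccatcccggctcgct
ETV1, chr7:13991376-13991675, minus strand: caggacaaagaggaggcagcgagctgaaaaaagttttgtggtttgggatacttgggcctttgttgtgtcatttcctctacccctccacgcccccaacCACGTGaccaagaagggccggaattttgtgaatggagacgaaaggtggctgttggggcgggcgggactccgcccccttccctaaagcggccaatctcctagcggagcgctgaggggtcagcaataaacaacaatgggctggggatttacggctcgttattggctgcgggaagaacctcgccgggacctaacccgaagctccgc
PBX3, chr9:125747933-125748232, plus strand: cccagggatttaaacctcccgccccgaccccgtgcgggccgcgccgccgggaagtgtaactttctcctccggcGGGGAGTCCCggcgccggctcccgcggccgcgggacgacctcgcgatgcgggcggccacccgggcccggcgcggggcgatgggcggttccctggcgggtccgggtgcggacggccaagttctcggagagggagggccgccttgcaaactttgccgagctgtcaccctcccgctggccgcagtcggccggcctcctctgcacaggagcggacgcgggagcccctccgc

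Each printed window is 1 of several for its gene (2 for RFX7, 2 for PPARGC1A and 6 for ETV1), except PBX3, which has 1. The E-box stood in 9 of the 225 windows (4%) and in 8.27% of all windows. The kappaB consensus stood in 12 (5.33%) and in 6.57% of all. The AP-1 motif TGANTCA stood in 7 (3.11%) against 6.19%, TATAAA in 21 (9.33%) against 9.17%, CCAAT in 66 (29.3%) against 34.7% and GGAATG, the core of TEAD sites, in 34 (15.1%) against 12.1%. TGACGTCA, the cyclic AMP element, stood in none of them and in 2.29% of all windows. The median GC content was 62.3% against 62.7%. A match of letters is a description only.

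Receptors, ligands and other secreted signals made up 18 genes, with a median of -0.55 at 6 h and 4 at or below -1. GHR, the growth hormone receptor, read 5.74, 5.07, 5.67 and 6.32 with BSA and 5.36, 4.16, 3.53 and 5.98 with TNF. TNF at 6 and 12 h were its lowest arrays, and the difference grew from -0.91 to -2.14 and was -0.33 at 24 h. Of the growth hormone axis, SOCS2, a target and brake of the receptor, differed by -1.22 and -0.84 at 6 and 12 h without meeting the rule. IGFBP3, the main carrier of insulin-like growth factors, was -0.30 and -1.08. STAT5A was higher with TNF, by 2.22 and 2.08.

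GDF6, a ligand of the bone morphogenetic protein family, had the lowest 6 h value of all 139, and read 6.86, 7.67, 6.75 and 6.42 with BSA and 6.31, 5.54, 5.19 and 6.73 with TNF. TNF at 6 and 12 h were lowest and BSA at 6 h the highest. RGMA, a coreceptor for such ligands, was -1.37 at 6 h and -1.09 at 12 h, but its other probe set with a mean level of at least 5 was at -0.17 and -0.36, and the mean of its probe sets at -0.28 at 6 h. GDF6 and RGMA sat close to the 2 h limit, at -0.55 and -0.54. NPR3, the receptor that clears natriuretic peptides, read 6.97, 7.56, 7.33 and 5.83 with BSA and 6.74, 6.29, 5.87 and 5.46 with TNF, lower with TNF at each time although both 24 h arrays were below both 2 h arrays. C5orf23, a further symbol of the platform, is listed in RefSeq as a synonym of NPR3, so its values (-1.39 at 6 h and -1.79 at 12 h) are a second reading of that locus, and the 139 symbols stand for 138 genes. GUCY1B1, a subunit of the soluble guanylate cyclase that senses nitric oxide, was -0.75 and -1.01. At 6 and 12 h NPR1, NPPA, NPPB and NPPC lay between -0.08 and 0.21.

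PTCH1, the receptor and target gene of hedgehog signalling, read 6.59, 6.35, 6.29 and 5.56 with BSA and 6.14, 5.17, 5.12 and 7.12 with TNF. TNF at 6 and 12 h were lowest and TNF at 24 h was highest. KITLG, or stem cell factor, read 7.89, 7.09, 7.47 and 7.43 with BSA and 7.62, 6.29, 6.34 and 8.06 with TNF, with the same 2 arrays lowest. C5, a complement component, read 5.93, 5.59, 5.70 and 5.63 with BSA and 5.92, 5.29, 4.25 and 4.39 with TNF; the difference was -0.30 at 6 h and -1.45 at 12 h, and TNF at 24 h was low as well. CXCL14, a chemokine of resting epithelium, read 5.47, 6.11, 6.18 and 3.66 with BSA and 5.50, 5.46, 4.65 and 3.99 with TNF, with both 24 h arrays below all others. PI15, a secreted protein of the cysteine-rich family, read 7.61, 7.44, 7.81 and 5.63 with BSA and 7.78, 7.85, 5.80 and 5.65 with TNF. It was the gene most unlike the rest at 6 h, higher with TNF by 0.41, and both of its 24 h arrays were as low as TNF at 12 h. The receptor IL11RA was -0.36 and -1.03, the hormone STC1 -0.33 and -1.01, the peptide SPX -0.15 and -1.24, and the scavenger receptor COLEC12 -0.59 and -1.13. ADGRL2, an adhesion G protein-coupled receptor, was -0.51 and -1.65.

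Adhesion, matrix and junction proteins numbered 11, with a median of -0.61 at 6 h and TSPAN12 alone at or below -1. TSPAN12, a tetraspanin that aids Frizzled signalling, read 7.27, 6.68, 7.10 and 7.18 with BSA and 6.93, 5.41, 5.38 and 7.66 with TNF. TNF at 6 and 12 h were more than 1 unit below the other 6 arrays. FAT4, a giant cadherin of planar polarity, read 6.99, 5.93, 7.05 and 6.18 with BSA and 6.94, 5.32, 5.49 and 7.24 with TNF; it was lower at 6 h than at 2 h in both arms and back at its 2 h level by 12 h with BSA only. GJA1, the gap junction protein connexin 43, read 7.96, 7.62, 8.44 and 7.35 with BSA and 7.74, 7.08, 7.35 and 7.95 with TNF, lowest with TNF at 6 h, and TNF at 12 h and BSA at 24 h both read 7.35. Of the non-clustered protocadherins, 3 of 12 measured were members: PCDH9 (-0.84 and -1.19 at 6 and 12 h), PCDH18 (-0.49 and -1.34) and PCDH10 (-0.74 and -1.01). PCDH20, at -0.67 and -0.62, was the nearest other, and PCDH1 and PCDH7 were 0.22 and 0.23 at 12 h.

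The matrix genes HAPLN1 and THBS1 followed. HAPLN1, which links hyaluronan to proteoglycans, read 9.96, 9.90, 10.34 and 8.46 with BSA and 9.67, 9.64, 9.02 and 8.31 with TNF. The difference was -0.27 at 6 h and -1.32 at 12 h, and both 24 h arrays were lower than any other. Its other probe sets were at -1.32 and -0.31 at 6 h and at -2.11 and -1.11 at 12 h. THBS1, the matricellular thrombospondin, read 9.45, 10.05, 10.04 and 8.32 with BSA and 9.70, 9.42, 8.76 and 5.50 with TNF. Its TNF minus BSA at 24 h, -2.82, was the lowest of the 139 genes at that time. Its other probe sets with a mean level of at least 5 read -0.86, -0.55 and 0.85 at 24 h, and -1.39, -0.32 and -1.54 at 12 h. SDC1, a heparan sulfate proteoglycan of epithelia, read 6.31, 6.59, 6.15 and 7.20 with BSA and 6.38, 5.89, 4.82 and 5.03 with TNF, with TNF at 12 and 24 h lowest. RECK, a membrane inhibitor of metalloproteinases, was -0.43 and -1.10. Of the 32 measured genes of a broader adhesion list, THBS1 was the only 1 at or below -1 at 12 h, 2 were at or above 1, and the median was 0.12.

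Transporters and channels made up 13 genes, with a median of -0.58 at 6 h. SLC40A1, the iron exporter ferroportin, read 5.74, 5.69, 5.94 and 5.94 with BSA and 5.68, 4.51, 4.27 and 6.02 with TNF. BSA was nearly level over the 4 times, and TNF at 6 and 12 h stood more than 1 unit below the others. SLC7A11, which imports cystine for glutathione synthesis, read 9.25, 7.83, 7.20 and 10.24 with BSA and 8.85, 8.01, 5.68 and 10.22 with TNF. Both arms were lower at 6 and 12 h than at 2 h and high at 24 h, and TNF minus BSA was 0.18 at 6 h and -1.52 at 12 h. Its other probe sets, both with a mean level of at least 5, were at 0.41 and 0.15 at 6 h and at -1.26 and 0.02 at 12 h. SLC7A11 was 1 of 19 measured glutathione and NRF2 target genes and the only 1 of them at or below -1 at 12 h, where their median was -0.05. ITPR1, a calcium release channel of the pathway that drives saliva secretion, read 5.91, 6.10, 6.36 and 7.27 with BSA and 6.05, 5.62, 5.27 and 7.28 with TNF, lowest with TNF at 12 h. Its other probe sets, with mean levels of 3.76 and 4.63, were at 0.11 and -0.23 at 12 h. Of 29 measured genes of salivary fluid and ion transport, ITPR1 was the only 1 at or below -1 at 12 h. None of the 29 was at or above 1, and the median was 0.08.

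Of 383 measured genes whose symbols start with SLC, 5 were members (1.31%), where 0.762% of all genes were. Besides the pair above, the lactate and pyruvate carrier SLC16A7 was -0.44 and -1.19 at 6 and 12 h, SLC37A3 -0.80 and -1.14, and the organic anion carrier SLCO4C1 -0.68 and -1.27. The potassium channel KCNH2 was -0.90 and -1.30. The glycine receptor subunit GLRB was -0.92 and -1.58, the GABA receptor subunit GABRA2 -0.80 and -1.14, and the exocytosis scaffold RIMS2 -0.14 and -1.03. Sarcolipin, SLN, which restrains the calcium pump, was -0.38 and -1.04.

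Signalling enzymes and scaffolds were the largest role, with 21 genes and a median of -0.56 at 6 h. JAKMIP2, a Janus kinase and microtubule binding protein, read 7.15, 6.30, 7.19 and 5.81 with BSA and 6.99, 4.78, 5.51 and 4.58 with TNF, and its 3 lowest arrays were TNF at 24, 6 and 12 h. MAP2K6, the kinase that activates p38, read 6.08, 5.69, 6.26 and 5.45 with BSA and 6.00, 4.85, 4.85 and 4.89 with TNF, with TNF between 4.85 and 4.89 from 6 h on and every BSA array at or above 5.45. The phosphoinositide phosphatase INPP4B was -0.54 and -1.44 at 6 and 12 h, PIP4P2 -0.89 and -1.39, and the protein kinase A subunit PRKAR2B -0.53 and -1.24. SASH1, a scaffold of epithelial signalling, was -1.08 and -1.18, the receptor kinase GRK3 -0.56 and -1.06, and RALGDS, an exchange factor for Ral, -0.67 and -1.13. PRICKLE1, of planar cell polarity, was -0.97 and -1.01, and PPME1, a methylesterase of protein phosphatase 2A, -0.86 and -1.19.

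A few genes, of this role, other roles or none, dipped at 6 h in both arms. By 12 h they had risen towards their 2 h level with BSA, PLEKHH2 only in part, and stayed low with TNF. AKAP9, which anchors protein kinase A at the Golgi and centrosome, read 6.89, 5.56, 6.78 and 7.77 with BSA and 6.93, 5.61, 5.78 and 8.52 with TNF. Both 6 h arrays were low and within 0.06 of each other, and TNF at 12 h stayed beside them. PTPN13, a large tyrosine phosphatase, read 7.28, 5.99, 7.07 and 7.42 with BSA and 7.06, 6.05, 5.91 and 8.06 with TNF, with the same 3 arrays lowest. NEBL, a nebulin relative of actin filaments, read 7.43, 6.63, 7.28 and 8.29 with BSA and 7.25, 6.62, 6.12 and 7.17 with TNF, and PLEKHH2 6.89, 5.35, 6.31 and 7.67 with BSA and 6.93, 5.25, 5.28 and 7.91 with TNF. With BSA 29 of the 139 genes were at least 1.5-fold lower at 6 h than at 2 h, where 4.79% of all genes were, and 16 of these 29 were among the 67 within 1.5-fold of BSA at 6 h. The 4 genes named here were picked out after their values were seen.

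The cytoskeleton gave 11 genes, with a median of -0.45 at 6 h. NEFL, the light neurofilament chain, read 7.59, 8.08, 8.01 and 6.86 with BSA and 7.35, 7.41, 6.40 and 7.54 with TNF, lowest with TNF at 12 h. The intermediate filament protein SYNM was -0.88 and -1.38 at 6 and 12 h, and the formin FMN1 -0.45 and -1.24. TMOD2, a cap of actin filaments, read 4.68, 3.50, 4.38 and 4.95 with BSA and 4.33, 3.81, 3.31 and 5.95 with TNF; it was 0.31 higher with TNF at 6 h. The nuclear envelope protein SYNE1 was -0.35 and -1.001.

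Metabolic enzymes and mitochondrial proteins, 18 genes, had the median nearest to 0 of the named roles at 6 h, -0.37, and COQ10A alone at or below -1. COQ10A, a coenzyme Q binding protein, read 8.69, 8.32, 8.44 and 8.48 with BSA and 8.55, 7.31, 7.42 and 6.97 with TNF, with TNF at 6, 12 and 24 h lowest. GYG2, which primes glycogen, read 7.89, 7.96, 7.83 and 8.08 with BSA and 7.78, 7.23, 6.53 and 5.64 with TNF; all 4 TNF arrays were below all 4 BSA arrays. The lipid enzymes SCD5 (-0.74 and -1.12 at 6 and 12 h), ELOVL4 (-0.30 and -1.08) and ACADSB (-0.10 and -1.23) were members, while of 21 measured genes of cholesterol and fatty acid synthesis none was at or below -1 at 12 h. AASS, of lysine breakdown, was -0.34 and -1.06, the selenium carrier SELENOP -0.27 and -1.23, and GPCPD1, of choline lipid breakdown, 0.17 and -1.02. MGARP, a mitochondrial protein, was -0.81 and -1.59.

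**Figure D4:**
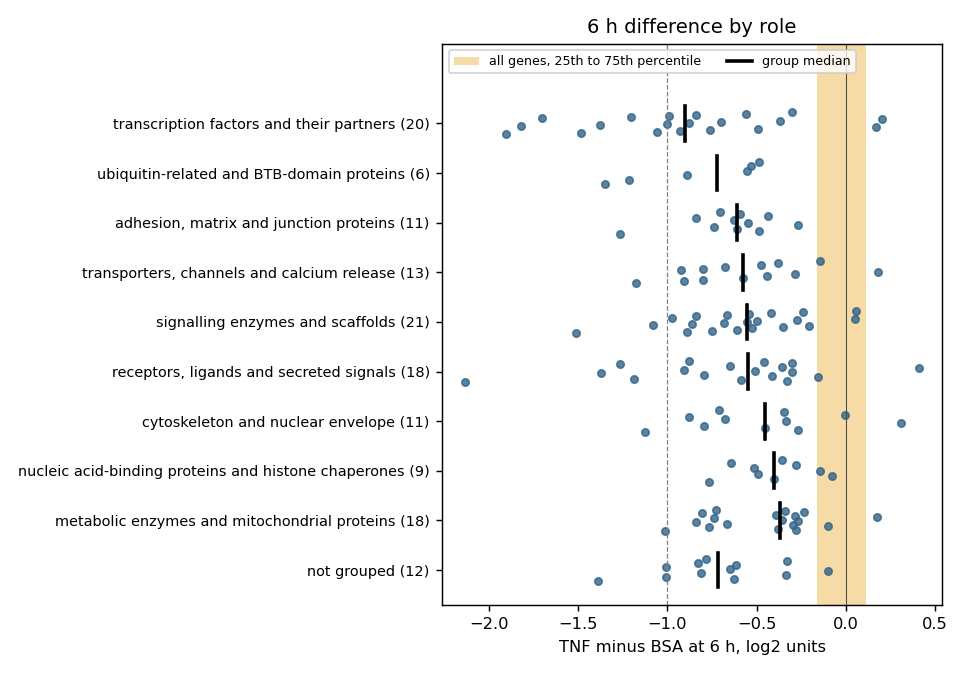
TNF minus BSA at 6 h in log2 units (horizontal axis) for the 139 genes, 1 point per gene, by role with the number of genes (points are spread vertically only for clarity), with the median of each role as a black bar and the span from the lower to the upper quartile of all genes shaded. The median of every named role lies left of the shaded band, from -0.90 for transcription factors to -0.37 for metabolic enzymes.

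Among 9 nucleic acid-binding proteins and histone chaperones the median at 6 h was -0.40 and none was at or below -1. The histone chaperones NAP1L2, NAP1L3 and NAP1L5 were all members, at -1.18, -1.49 and -1.01 at 12 h and -0.40, -0.77 and -0.36 at 6 h. Their relatives NAP1L1 and NAP1L4 were both 0.02 at 12 h. The splicing regulators RBM20 (-0.51 and -1.44 at 6 and 12 h) and RBM24 (-0.08 and -1.10) and the RNA-binding RBMS3 (-0.28 and -1.09) and NANOS1 (-0.49 and -1.04) were members. DIS3L, of the cytoplasmic exosome that degrades RNA, was -0.65 and -1.06. Of 6 ubiquitin-related and BTB-domain proteins, 2 were at or below -1 at 6 h: the ligase TRIM2 (-1.22 and -1.78) and KBTBD7 (-1.35 and -1.52). TRIM2 read 6.91, 7.31, 7.88 and 7.35 with BSA and 6.79, 6.10, 6.10 and 8.37 with TNF. RHOBTB3, a BTB-domain protein, read 10.45, 9.91, 10.35 and 10.24 with BSA and 10.25, 9.35, 9.16 and 10.11 with TNF, lowest with TNF at 12 and 6 h.

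The 12 genes without a role had a median of -0.72 at 6 h and ranged from -1.39 for C5orf23 to -0.10 for PLEKHH2. By position, 3 pairs of the 139 genes are neighbours in RefSeq's gene order, namely ELMOD1 and SLN, PCDH18 and SLC7A11, and ATXN1 and RBM24. Such pairs were not counted in other sets of genes, so the count does not show clustering. POTEM belongs to a family of near-identical copies, so its probe set may read several. Of the 139 genes, 4 belong to any of 18 pathway lists, namely SLC7A11, ITPR1, THBS1 and SATB1. The share of all genes in these lists was not counted, so the 4 are neither few nor many by this figure. At 12 h no measured gene was at or below -1 in the lists of mitosis and DNA replication (36 genes, median -0.16), the Wnt pathway (36, -0.05), the Notch pathway (21, 0.09) or the Hippo pathway and YAP targets (21, -0.02). In the TGF-beta and BMP pathway 2 of 37 were, with a median of -0.04. In the list of NF-kB feedback genes 11 of 15 were at or above 1 at 12 h (1.29% of all genes), and in that of interferon-stimulated genes 21 of 26.

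**Figure D5:**
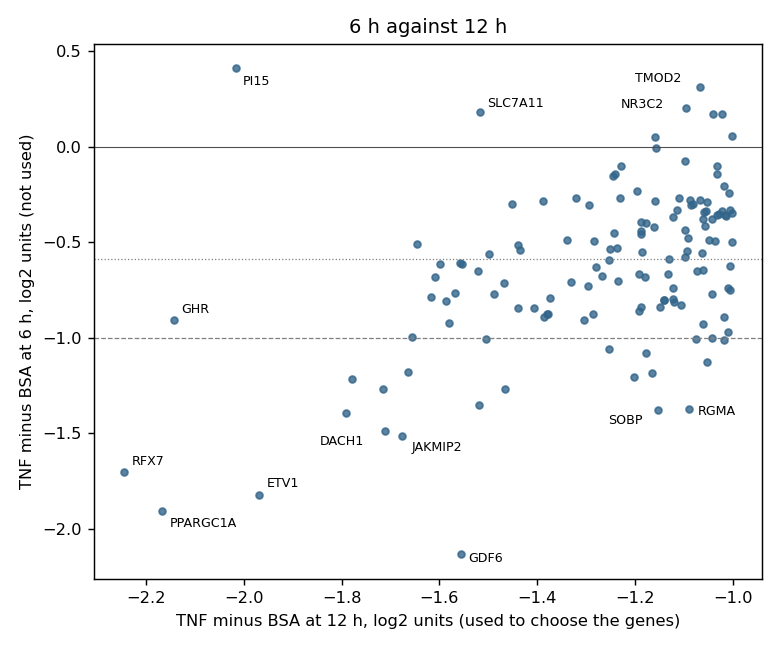
TNF minus BSA in log2 units at 6 h (vertical axis, not used to choose the genes) against 12 h (horizontal axis, used to choose them), 1 point per gene for the 139 genes, with a dashed line at -1 and a dotted line at a 1.5-fold lower level for 6 h. The 23 genes under the dashed line include RFX7, PPARGC1A, ETV1, GDF6, DACH1 and JAKMIP2, and 8 genes such as PI15, TMOD2, NR3C2 and SLC7A11 lie above 0.

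The edges of the choice are narrow. Just inside the 12 h limit were SYNE1 (-1.001), AKAP9 (-1.002) and GULP1 (-1.002), and just outside MAP9 (-0.999), SLC16A14 (-0.998) and CDO1 (-0.995). At the 2 h limit GDF6 (-0.551), RGMA (-0.544) and MYLK3 (-0.536) were inside, and TXNIP (-0.601), FLRT3 (-0.686) and PDK4 (-0.699) outside. At 12 h these last read -1.11, -1.11 and -1.35.

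Of the 139 genes, 118 have further probe sets, 282 in all, read on the same arrays. At 12 h 233 of the 282 were below 0 (all genes: 50.8%), 53 were at or below -1 (all genes: 0.839%), and the median was -0.38. Of the 118 genes, 37 had a further probe set at or below -1 at 12 h, and 52 had every further one within 1.5-fold. The 12 h arrays chose the genes, so these counts are description only. Many of the further probe sets were dim. Of the 80 with a mean level of at least 5, which belong to 53 genes, 79 were below 0, 44 were at or below -1, and the median was -1.05, with a median of -0.44 at 6 h. Those nearer to 0 at 12 h included probe sets of SLC7A11 (0.02), GPCPD1 (-0.07), SCD5 (-0.09), SDC1 (-0.30), RBM20 (-0.36) and RECK (-0.37). All 3 probe sets of RFX7 were at or below -1 at 12 h, at -2.24, -1.65 and -1.05, but all 3 were dim, with mean levels of 4.33, 3.80 and 3.66. For PPARGC1A 2 of 4 were, at -2.17 and -2.34, and the other 2, both dim, at -0.09 and -0.37. Both of DACH1 were, at -1.71 and -2.08, and all 3 of TRIM2, from -1.78 to -1.69. GHR, PI15 and GDF6 rest on 1 bright probe set each, beside a dim one at -0.45, -0.24 and 0.03. With the mean of all probe sets of each gene in place of the brightest, the same rule gave 50 genes, 45 of them among the 139, with a median of -0.68 at 6 h.

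At 24 h the median difference was 0.27 against 0.20 over all genes. Below 0 were 48 of the 139 (34.5%), against 29% of all genes, and 14 (10.1%) were at or below -1 against 6.67% of all genes, while 14 were at or above 1 against 6.10%. With the mean of probe sets the 50 genes had a median of -0.093 against 0.15 over all genes, and 14% of them were at or below -1 against 6.35%, so the sign of the median at 24 h depends on the choice of probe set. From 12 to 24 h the median change was 1.08 with TNF and -0.31 with BSA, and 72 genes were at least 2-fold higher with TNF at 24 h than at 12 h, where 12.5% of all genes were. With BSA 29 were at least 2-fold lower at 24 h than at 12 h, against 2.04%, and 8 were at least 2-fold higher, against 2.63%. Both 12 h arrays chose the genes, so the choice favours a rise with TNF and a fall with BSA after 12 h. These changes are description only. The lowest at 24 h were THBS1 (-2.82), PPME1 (-2.78) and POTEM (-2.60), and the highest PTCH1 (1.56), TOX (1.35) and NEXN (1.30). As all are lower at 12 h by choice, only the other times count: 46 (33.1%) were below 0 at both 6 and 24 h, against 19.2% of all genes. At or below -1 at both were 3 (2.16%), RFX7, JAKMIP2 and COQ10A, against 0.0439% of all genes. These values come with the GAPDH gap of 6.28 on the TNF array, whose part in them was not tested.

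A fit over the 6 h and 24 h pairs together asked which of the 139 genes were lower at times that had not chosen them, with the pair of times in place of replicates. With limma, time as a factor and Benjamini-Hochberg adjustment over 18239 genes, 0 of the 139 and 0 of all genes passed an adjusted p of 0.05 (0% of all). The fit has 1 residual degree of freedom. Its 24 h pair holds the TNF array with the GAPDH gap of 6.28, whose part in the fit was not tested. Without adjustment 675 genes had a p under 0.05, of which 242 (1.33% of all) were lower. Among the 139 these were 16, all lower (11.5%). RFX7 was lowest in p, at -1.503 ± 0.221 (SE moderated by limma, 2 pairs, adjusted p = 0.851 with limma), lower in both pairs. JAKMIP2 was at -1.37 ± 0.21 and COQ10A at -1.26 ± 0.23, both also lower in 2 of 2 pairs. When the prior variance was allowed to follow the mean level, limma called 40 genes, and of the 139 RFX7 alone (adjusted p = 0.0354).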

How the data were processed

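Levels were the authors' deposited log2 values, RMA-processed per the submitters' processing notes, for 49386 probe sets on 8 arrays. Which software and version ran RMA, and whether probe sets were filtered, is not given in the sources used here. Probe sets were named from GEO's platform annotation. The 45253 with 1 symbol were reduced to 18239 genes by the highest mean over the 8 arrays. Differences are TNF minus BSA at each time, with no replicate. As the arrays are few and single, their number limits the precision. limma 3.58.1 (R 4.3.3) was run over the 6 h and 24 h pairs with time as a factor, Benjamini-Hochberg adjustment over all genes and a threshold of 0.05, and was tested on simulated data. Motifs were searched in RefSeq promoter windows of GRCh38.p14. Genes were named by rule: the lowest and highest differences at each time, the highest BSA levels, those in pathway lists and those at the thresholds, with further members by role. The members, lists and roles were chosen with earlier results of these data known. Some symbols were left out and are not reported here.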

Additional observations from a re-analysis of the deposited data

Results flagged for a closer look

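For 14 of the 139 genes TNF minus BSA was at or below -1 at 12 h and at or above 1 at 24 h, opposite directions at these times. The 24 h values were 1.56 for PTCH1, 1.35 for TOX, 1.30 for NEXN, 1.16 for CTTNBP2, 1.14 for SERPINB1, 1.14 for SLCO4C1, 1.11 for SATB1, 1.08 for THAP10, 1.06 for FAT4, 1.04 for NAP1L3, 1.03 for TRIM2, 1.01 for ELOVL4, 1.004 for KCTD18 and 1.001 for TMOD2. The other probe sets of TRIM2 read -0.37 and -0.53 at 24 h. The difference between times was not tested, since each treatment and time has 1 array. Of all genes, 6.1% were at or above 1 at 24 h, and the GAPDH gap on the TNF array was 6.28. Its part in these values was not tested.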

How the results depend on the processing

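With the mean of all probe sets of a gene, the rule gave 50 genes, of which 13 were at or below -1 and 49 below 0 at 6 h, 7 were at or below -1 at 24 h, and the 24 h median was -0.093. A 12 h threshold of -1.5 gave 26 genes, with 12 at or below -1 and 24 below 0 at 6 h, a 6 h median of -0.96, and 3 at or below -1 at 24 h. A 2 h window of 0.322 log2 units left 14 genes at or below -1 at 6 h. Counted at 1.5-fold, 72 genes were lower at 6 h. For the fit over the 6 h and 24 h pairs, limma with a trend called 40 genes and 1 of the 139, RFX7. On genes with a mean level of at least 5, limma called 19 genes, none of them lower. None was among the 117 of the 139 genes that passed this filter. RFX7, with a mean level of 4.33, did not pass it and was not tested there. Centring each array, quantile normalising again, leaving out shared probe sets and filtering dim genes kept the counts of members within 1.5 times, from 109 to 137. Choosing the brightest probe set over the 7 arrays other than TNF at 24 h, and quantile normalising for the further probe sets, were chosen after seeing the data, and gave 139 members and 243 further probe sets below 0 at 12 h. For 145 genes (the 139 and those just outside the limits), the 6 h difference moved by more than 0.242, the SD of all 2 h differences, in 57 with the mean of probe sets and in none after centring or quantile normalisation, and its sign differed in 3, 1 and 1. No analysis paired by replicate number was possible because the labels give no such numbers and each group has 1 array, which also leaves no replicate to omit. The pairs in the limma fit are the TNF and BSA arrays of 1 time, with time as the factor, and no fit by replicate number exists. Precision is limited by the number of arrays.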
